A study of Mus musculus with 21 samples.

Results

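The genes described here are the 7 that encode the receptor for colony stimulating factor 1, its ligands, and the receptor chains of the related granulocyte-macrophage and granulocyte factors: Csf1r, Csf1, Il34, Csf2ra, Csf2rb, Csf2rb2 and Csf3r. They were chosen by name from the 55401 genes of the count table, of which 37538 held a count in some mouse, and all 7 passed the filter on low counts in every comparison. RNA-seq was done on the forebrains of 21 mice. In E2H, E3H and E4H mice (n = 3 each), the parental lines, both copies of the mouse Apoe gene had been replaced by human APOE2, APOE3 or APOE4. Mice labelled PS/E2H, PS/E3H or PS/E4H (n = 4 of each) had the same homozygous human allele and were heterozygous for the PS19 transgene, human tau with the P301S mutation. All groups, controls included, thus had human APOE in place of mouse Apoe. The PS19 mice were taken when their hindlimbs were paralyzed, whereas the parental mice were 9 to 10 months old per the study, so that transgene, paralysis and age cannot be told apart. The paper reports that PS/E3H mice reached paralysis later than PS/E2H and PS/E4H mice. Wherever PS19 groups, or their differences from parental mice, are compared between APOE alleles, age and allele therefore cannot be told apart. The PS19 parents were kept on a B6/C3H background and the APOE lines on C57BL6, and strain background cannot be told apart from the transgene either. The mouse prion promoter drives the PS19 transgene. Per the methods, 1 of the E4H, 1 of the PS/E2H and 2 of the PS/E4H mice were female and all others male, but which ones is not in the labels.

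CSF1R is a receptor tyrosine kinase on microglia and other macrophages, and microglia in the adult brain depend on its signal to survive. It has a pair of ligands, CSF1, made in the brain largely by glia and microglia themselves, and IL-34, made mainly by neurons. CSF2RA is the specific alpha chain of the receptor for granulocyte-macrophage colony stimulating factor, and CSF2RB is the beta chain that it shares with the receptors for IL-3 and IL-5. Mice have a second beta chain, CSF2RB2, which serves IL-3. CSF3R, the receptor for granulocyte colony stimulating factor, is best known from neutrophils and their precursors.

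In the GENCODE M21 annotation of GRCm38, which gives all positions here, the genes of the beta chains lie side by side. Csf2rb (ENSMUSG00000071713, chr15:78325752-78353847, plus strand) and Csf2rb2 (ENSMUSG00000071714, chr15:78282507-78305721, minus strand) point away from each other. The coding sequences of this pair, 2688 and 2634 bases long, were identical at 95.2% of 2628 aligned positions, with 242 bases as the longest identical run. Of all 50-base windows of its exons, 12.3% of Csf2rb and 18.4% of Csf2rb2 occur in the other gene, so the split of reads between them is uncertain where a fragment falls inside such a stretch. Among coding stretches of 90 bases aligned without a gap, the one in which they differ most is printed. It starts at coding base 308 in Csf2rb and 311 in Csf2rb2, and a fragment there can be assigned by its differences. Capitals mark the 16 positions that differ.
Csf2rb: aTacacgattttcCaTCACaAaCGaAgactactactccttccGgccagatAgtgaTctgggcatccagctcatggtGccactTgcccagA
Csf2rb2: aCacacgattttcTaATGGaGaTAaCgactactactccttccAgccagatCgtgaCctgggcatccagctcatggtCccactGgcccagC

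RefSeq promoter sequences of the reference table (GRCm38.p6) matched 4 members, Csf1, Csf2ra, Csf2rb2 and Csf3r. In the 250 bases before each start, both strands were searched for the PU.1 core GAGGAAGT, the AP-1 motif TGANTCA and the STAT motif TTCNNNGAA, which 2.44%, 6.75% and 7.02% of all 32851 promoters of that length hold. These promoters held a single match, a STAT motif in Csf2rb2 that starts at base -15. The promoter of Csf2rb2, chr15:78305722-78305971 on the minus strand, is printed for this match, which is in capitals. It is a match of letters and not a measured site.
Csf2rb2 promoter: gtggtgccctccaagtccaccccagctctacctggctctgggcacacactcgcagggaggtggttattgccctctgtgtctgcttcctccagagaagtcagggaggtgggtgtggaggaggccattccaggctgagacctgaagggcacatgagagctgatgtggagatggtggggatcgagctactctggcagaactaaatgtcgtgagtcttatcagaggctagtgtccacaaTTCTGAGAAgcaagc

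Total counts were 59265459 to 75932183 per mouse. Members were counted at between 47 and 14682 reads per mouse, with the beta chains lowest. Levels are given as CPM (counts scaled to library size after TMM normalization) within a gene and as the deposited FPKM (fragments scaled to gene length and library size) between genes. A gene "passed" at a Benjamini-Hochberg adjusted p under 0.05 over all tested genes in edgeR's quasi-likelihood test, and was "called" if it also differed 2-fold. The mice of a group may share litters, which the labels do not give. In bulk forebrain RNA, fewer cells of a type and less RNA per cell cannot be told apart. As a check on brain tissue, the 8 neuronal genes, among them Snap25 and Syt1, summed to between 782 and 1048 FPKM in each mouse. These genes mark neurons in general and were not chosen to tell forebrain from other brain regions. Neutrophil markers stood apart in 4 mice, as described with Csf3r.

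In PS19 mice 5 members rose over the lines, Csf1r, Csf1, Csf2rb, Csf2rb2 and Csf3r, while Il34 and Csf2ra were slightly lower. In PS/E2H against E2H mice 2 members passed, both higher, where 0.669% of the 20617 tested genes passed as higher. In PS/E3H against E3H mice 4 passed, all higher, against 3.35% of 21251 genes. In PS/E4H against E4H mice 5 passed, all higher, against 8.62% of 20844 genes. With the 2-fold limit the counts were 1, 2 and 3 members, and 0.451%, 1.2% and 2.4% of genes were called as higher in these comparisons. A fit of all 21 mice with the APOE line as a covariate, the pooled tau effect, had 5 members higher (11.4% of 22863 genes) and 2 lower (9.63%), and 3 were called (2.24%). The members' median log2 fold change was 0.77, 0.76 and 0.89 in the 3 lines and 0.81 pooled, beside medians of all tested genes of -0.0152, -0.00428, -0.0023 and -0.00603. The groups did not overlap in CPM for 3, 4 and 6 members in the 3 lines, as for 11.7%, 19.2% and 28.8% of genes, and for 3 members over all mice, as for 1.55% of genes. The pooled effect uses the same mice as the single lines and adds no independent evidence. Leaving out 1 mouse at a time gave 0 to 1 called members in the E2 line, 0 to 3 in the E3 line, 3 in the E4 line and 3 pooled. The E2 line went to 0 without any 1 of E2H 1, E2H 2, E2H 3, PS/E2H 1 and PS/E2H 3. The E3 line went to 0 without E3H 1 or E3H 3, to 1 without E3H 2 and to 3 without PS/E3H 1.

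**Figure D1:**
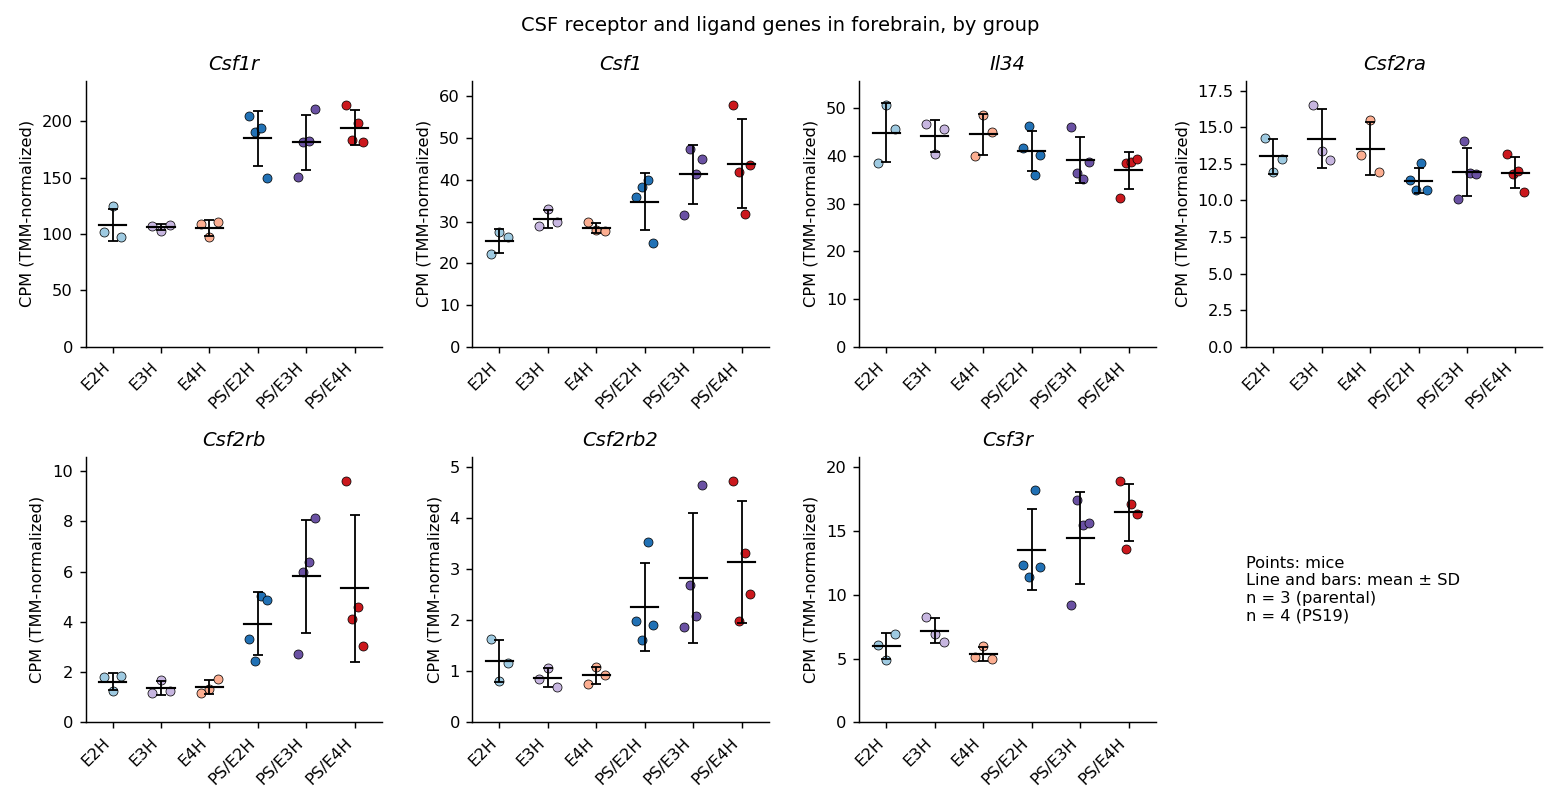
Level of each of the 7 genes in every mouse (y axis, TMM-normalized CPM from 0; x axis, group; points are mice, the line and bars are mean ± SD, n = 3 parental and n = 4 PS19 mice). For Csf1r, Csf2rb and Csf3r every PS19 mouse lies above every parental mouse, while Il34 and Csf2ra overlap between the sets.

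Csf1r, the receptor itself, was higher in PS19 mice in all 3 lines. The gene (ENSMUSG00000024621) is at chr18:61100598-61132149 on the plus strand, and 14.3% of the 50-base windows of its exons are shared with Hmgxb3 on the opposite strand. The library kit keeps strand, but whether the counting used it is not given in the sources used here. Its CPM was 102, 125 and 97.6 in the E2H mice, 107, 103 and 108 in the E3H mice and 109, 97.2 and 110.5 in the E4H mice. It was 205, 190.5, 194 and 149.7 in the PS/E2H mice, 151, 181, 183 and 211 in the PS/E3H mice and 214, 183, 199 and 182 in the PS/E4H mice. No PS19 mouse reached down to a parental mouse: the highest parental value was 125 and the lowest PS19 value 150, so the gene does not overlap over all 21 mice, as holds for 1.4% of genes in that direction. The log2 fold change was 0.77 ± 0.13 (SE; adjusted p = 0.0291) in the E2 line, 0.76 ± 0.10 (SE; adjusted p = 0.00416) in the E3 line and 0.89 ± 0.08 (SE; adjusted p = 1.47e-04) in the E4 line. The pooled difference was 0.81 ± 0.06 (SE; adjusted p = 8.87e-09), with a 95% interval of 0.68 to 0.94, below 2-fold throughout. Csf1r was thus not called in any line. The E2 line's pass rests on single mice: without each of E2H 1, E2H 3, PS/E2H 1, PS/E2H 2 and PS/E2H 3 in turn the adjusted p was 0.0571 to 0.172. It was also lost without a filter on low counts (adjusted p = 0.0518). Among parental mice the 3 lines were between 97.2 and 125 CPM and their groups overlapped.

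Csf1, the ligand that glia make, was higher in PS19 mice by less than its receptor. The gene (ENSMUSG00000014599) is at chr3:107741048-107760469 on the minus strand. Its CPM was 22.2, 27.6 and 26.2 in the E2H mice, 28.9, 33.1 and 29.9 in the E3H mice and 30.0, 27.9 and 27.7 in the E4H mice. It was 35.9, 38.3, 40.0 and 24.9 in the PS/E2H mice, 31.5, 47.3, 41.3 and 45 in the PS/E3H mice and 57.9, 42, 31.9 and 43.7 in the PS/E4H mice. Each PS19 group held a low mouse, PS/E2H 4, PS/E3H 1 and PS/E4H 3, and PS/E4H 1 was the highest of all mice. In edgeR the gene passed in the E4 line alone, where the groups did not overlap, with a log2 fold change of 0.62 ± 0.16 (SE; adjusted p = 0.0264), and without each of E4H 1, E4H 2 and E4H 3 in turn the adjusted p was 0.0732 to 0.106. That pass was also lost without a filter on low counts (adjusted p = 0.0664) and with limma on log2(FPKM + 1) and log2(FPKM + 0.1) (adjusted p = 0.0681 and 0.0625). In the E2 line the difference was 0.45 ± 0.16 (SE; adjusted p = 0.322) and in the E3 line 0.41 ± 0.13 (SE; adjusted p = 0.0904). The E3 line passed without PS/E3H 1 (adjusted p = 0.00361) and with DESeq2 (adjusted p = 0.0149). Pooled over the lines, Csf1 rose by 0.50 ± 0.10 (SE; adjusted p = 5.85e-04) on the log2 scale.

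Il34, the ligand that neurons make, did not pass in any line with edgeR, and its fitted difference was below 0 in each. The gene (ENSMUSG00000031750) is at chr8:110741829-110805924 on the minus strand and shares 1.3% of its exon windows with Gm15895 on the opposite strand. Its CPM was 38.5, 50.7 and 45.6 in the E2H mice, 46.7, 40.4 and 45.7 in the E3H mice and 40.1, 48.5 and 45.1 in the E4H mice. It was 41.6, 46.2, 35.9 and 40.2 in the PS/E2H mice, 46, 36.5, 35.2 and 38.7 in the PS/E3H mice and 31.2, 38.5, 38.7 and 39.5 in the PS/E4H mice. Only in the E4 line did the groups not overlap, with all 4 PS/E4H mice below all E4H mice. The log2 differences were -0.13 ± 0.12 (SE; adjusted p = 0.798), -0.19 ± 0.10 (SE; adjusted p = 0.3) and -0.27 ± 0.10 (SE; adjusted p = 0.0969) in the E2, E3 and E4 lines. With DESeq2 the E4 line passed (adjusted p = 0.0499). Over all mice the difference passed narrowly at -0.19 ± 0.06 (SE; adjusted p = 0.0391). It did not pass without a filter on low counts or in 11 of the 21 fits that left out 1 mouse, where the adjusted p was 0.0566 to 0.0984; those mice were E2H 2, E2H 3, E3H 1, E3H 3, E4H 2, E4H 3, PS/E2H 3, PS/E3H 2, PS/E3H 3, PS/E3H 4 and PS/E4H 1. The E3 line passed without PS/E3H 1 (adjusted p = 0.0456). Of 8 neuronal markers, 5 fell and 2 rose in the pooled fit, with a median of -0.15, and their summed FPKM was 918 to 1048 in parental and 782 to 994 in PS19 mice. Snap25, Slc17a7 and Syt1, synaptic genes with the highest FPKM on the list, differed by -0.20 ± 0.04 (SE; adjusted p = 0.00171), -0.26 ± 0.09 (SE; adjusted p = 0.0355) and -0.16 ± 0.05 (SE; adjusted p = 0.0167). The 2 that rose were Gad1, by 0.20 ± 0.05 (SE; adjusted p = 0.00391), and Gad2, by 0.26 ± 0.07 (SE; adjusted p = 0.00886). The part of the neuronal genes in the Il34 result was not tested.

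Compared by FPKM, which is scaled for length, Il34 was the more abundant ligand in every mouse. Its mean was 21 ± 1.63 FPKM (SD, n = 9) in parental and 18.3 ± 1.76 FPKM (SD, n = 12) in PS19 mice, beside 4.94 ± 0.644 and 6.97 ± 1.57 FPKM for Csf1. The ratio of Il34 to Csf1 FPKM was 4.67, 4.95 and 4.7 in E2H, 4.36, 3.29 and 4.12 in E3H and 3.61, 4.69 and 4.39 in E4H mice. It was 3.12, 3.25, 2.42 and 4.36 in PS/E2H, 3.94, 2.08, 2.3 and 2.32 in PS/E3H and 1.46, 2.47, 3.27 and 2.44 in PS/E4H mice. The ratio in PS19 mice was below that of the same line's parental mice in all 12 mice except PS/E3H 1, and was lowest in PS/E4H 1, where Csf1 was highest and Il34 lowest of all mice. The ratio was not tested.

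**Figure D2:**
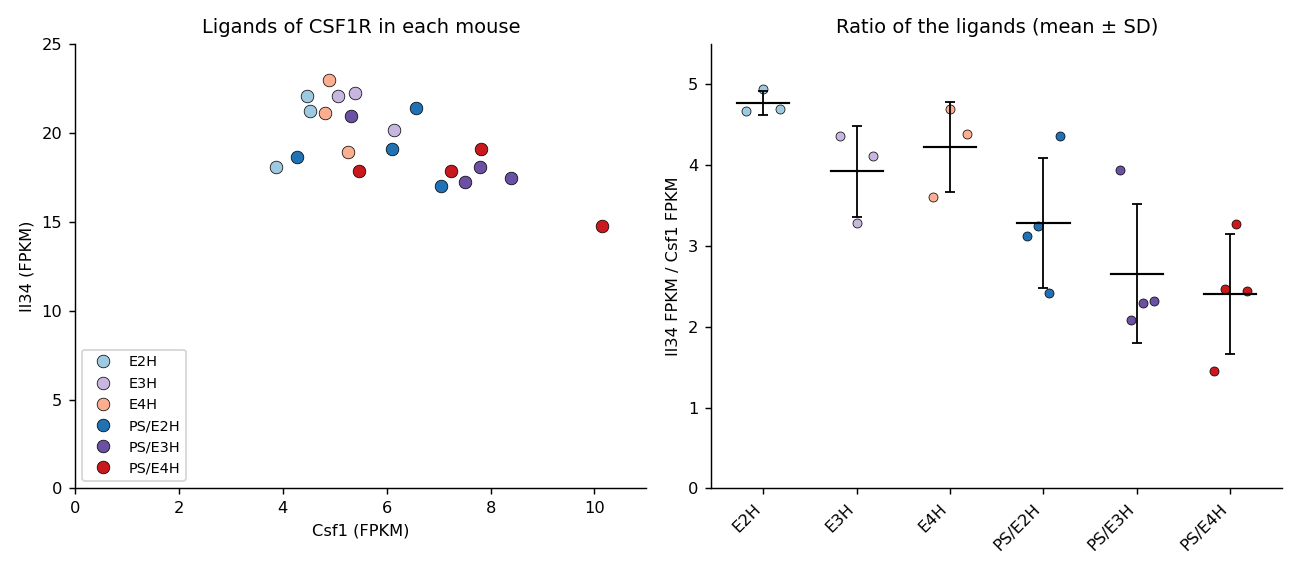
Left, Csf1 against Il34 in each of the 21 mice (both axes in FPKM, color for the group); right, the ratio of Il34 to Csf1 FPKM by group (points are mice, line and bars are mean ± SD). Parental mice sit at ratios of 3.29 to 4.95 and PS19 mice at 1.46 to 4.36.

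The order of the 7 genes by FPKM changed between the sets of mice. In each parental line Il34 was first and Csf1r second, at 21.5 ± 1.14 and 17.5 ± 0.294 FPKM (SD, n = 3) in E3H mice, and these neighbours overlapped in E2H mice only. In each PS19 group Csf1r was first and did not overlap with Il34, at 29.2 ± 4.25 and 18.4 ± 1.71 FPKM (SD, n = 4) in PS/E3H mice. Csf1 followed these 2 genes in all groups. It overlapped with Csf2ra in each parental line. In PS19 groups it was above both Csf2ra and Csf3r without overlap with its neighbour. In parental lines Csf3r was below Csf2ra without overlap. In PS19 groups the neighbours Csf2ra and Csf3r overlapped, and Csf3r had the higher mean in PS/E4H mice. The beta chains were last everywhere, at no more than 1.22 FPKM in any mouse, and did not differ from each other beyond their spread.

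Csf2rb, the shared beta chain, had the largest fitted fold changes of the members. Its CPM was 1.79, 1.25 and 1.84 in the E2H mice, 1.16, 1.71 and 1.25 in the E3H mice and 1.16, 1.33 and 1.72 in the E4H mice. It was 3.33, 2.44, 5.03 and 4.89 in the PS/E2H mice, 2.73, 6, 6.38 and 8.14 in the PS/E3H mice and 9.61, 4.12, 4.58 and 3.05 in the PS/E4H mice. The lowest PS19 value, 2.44 in PS/E2H 2, was above the highest parental value, 1.84. The log2 fold change was 2.07 ± 0.34 (SE; adjusted p = 0.0112) in the E3 line and 1.93 ± 0.37 (SE; adjusted p = 0.00838) in the E4 line, and both were called. In the E2 line the groups did not overlap but the gene did not pass with edgeR, at 1.26 ± 0.29 (SE; adjusted p = 0.0995), while it did with DESeq2 (adjusted p = 0.00306). Without either of E3H 1 and E3H 3 the E3 line did not pass (adjusted p = 0.0641 to 0.0708). With limma on log2(FPKM + 1) neither the E3 nor the E4 line passed (adjusted p = 0.0633 and 0.0642). The pooled difference was 1.76 ± 0.22 (SE; adjusted p = 6.01e-06). On log2(FPKM + 1), where a low gene's change is compressed, it was 0.447.

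Csf2rb2, the beta chain that serves IL-3, was higher along with its neighbour in the E3 and E4 lines. Its CPM was 1.63, 0.818 and 1.16 in the E2H mice, 0.843, 1.07 and 0.704 in the E3H mice and 0.761, 1.09 and 0.923 in the E4H mice. It was 1.99, 1.61, 3.54 and 1.9 in the PS/E2H mice, 1.87, 2.69, 2.09 and 4.65 in the PS/E3H mice and 4.72, 1.98, 3.32 and 2.52 in the PS/E4H mice. The E2H group had the highest parental value, 1.63, and there the PS19 mice overlapped with it. Csf2rb2 was called in the E3 line, at 1.68 ± 0.35 (SE; adjusted p = 0.0241), and in the E4 line, at 1.76 ± 0.31 (SE; adjusted p = 0.00594). The E2 line gave 0.90 ± 0.34 (SE; adjusted p = 0.366). Without each of E3H 1, E3H 2 and E3H 3 in turn the E3 line did not pass (adjusted p = 0.0679 to 0.114), nor with limma on log2(FPKM + 1) and log2(FPKM + 0.1) (adjusted p = 0.102 and 0.0693). Pooled, the gene rose by 1.45 ± 0.22 (SE; adjusted p = 4.36e-05). Since the coding sequences of the pair are nearly alike over most of their length, a change of 1 beta chain may be counted in part for the other, and how much was not tested. PS/E3H 4 and PS/E4H 1 had the highest values of both genes and also the most neutrophil marker RNA. Without these mice and a pair of others with such RNA the pooled differences were 1.55 for Csf2rb and 1.38 for Csf2rb2, as described with Csf3r.

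Csf2ra, the alpha chain without which the beta chain does not bind granulocyte-macrophage factor, did not pass as higher in any line. The gene (ENSMUSG00000059326) is at chr19:61223957-61228429 on the minus strand. Its CPM was 14.3, 11.9 and 12.8 in the E2H mice, 16.5, 13.4 and 12.8 in the E3H mice and 13.1, 15.5 and 12 in the E4H mice. It was 11.4, 10.7, 12.5 and 10.7 in the PS/E2H mice, 10.1, 14.1, 11.9 and 11.8 in the PS/E3H mice and 13.2, 11.8, 12 and 10.6 in the PS/E4H mice. The groups overlapped in every line. The log2 differences were -0.20 ± 0.12 (SE; adjusted p = 0.643), -0.27 ± 0.13 (SE; adjusted p = 0.287) and -0.18 ± 0.12 (SE; adjusted p = 0.361) in the E2, E3 and E4 lines. The pooled difference passed at -0.21 ± 0.07 (SE; adjusted p = 0.0365), but not without a filter on low counts, nor in 7 of 21 fits without 1 mouse (adjusted p = 0.0506 to 0.0879), which were those without E2H 1, E3H 1, E4H 2, PS/E3H 1, PS/E3H 3, PS/E3H 4 and PS/E4H 4. In each line the 95% interval ended below 0.1 on the log2 scale, at 0.08, 0.03 and 0.09.

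Csf3r, the receptor for granulocyte factor, was higher in PS19 mice in all 3 lines. The gene (ENSMUSG00000028859) is at chr4:126024550-126044440 on the plus strand and shares 8.84% of its exon windows with AC105061.2. Its CPM was 6.07, 4.91 and 6.96 in the E2H mice, 8.28, 6.94 and 6.33 in the E3H mice and 5.09, 6.02 and 4.99 in the E4H mice. It was 12.3, 11.4, 18.2 and 12.2 in the PS/E2H mice, 9.23, 17.4, 15.5 and 15.6 in the PS/E3H mice and 18.9, 13.5, 17.1 and 16.3 in the PS/E4H mice. The highest parental value was 8.28 in E3H 1 and the lowest PS19 value 9.23 in PS/E3H 1, so the sets did not overlap. The log2 fold change was 1.17 ± 0.20 (SE; adjusted p = 0.0319) in the E2 line and 1.62 ± 0.14 (SE; adjusted p = 1.27e-04) in the E4 line, both called. In the E3 line it passed below 2-fold, at 0.99 ± 0.20 (SE; adjusted p = 0.0228). The E2 line did not pass without any 1 of E2H 1, E2H 2, E2H 3, PS/E2H 1 and PS/E2H 3 (adjusted p = 0.0516 to 0.13), nor the E3 line without any 1 of E3H 1, E3H 2, E3H 3 and PS/E3H 4 (adjusted p = 0.0624 to 0.101). With limma on log2(FPKM + 1) and log2(FPKM + 0.1) neither the E2 line (adjusted p = 0.0677 and 0.0542) nor the E3 line passed (adjusted p = 0.0669 and 0.0573), and the E2 line did not pass without a filter on low counts (adjusted p = 0.056). Pooled, Csf3r rose by 1.26 ± 0.12 (SE; adjusted p = 2.01e-07).

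As Csf3r is best known from neutrophils, 10 neutrophil markers were summed per mouse. The sum was 1.69 to 6.31 CPM in 17 mice, 46.0 CPM in PS/E3H 4, 27.2 CPM in PS/E4H 1, 11.8 CPM in E2H 1 and 9.6 CPM in PS/E2H 4. S100a9, S100a8 and Ngp, proteins of neutrophil granules and cytosol, had the highest FPKM on the list. Mmp9 had 54 to 243 counts per mouse and was at 0.04 ± 0.19 (SE; adjusted p = 0.916) pooled, while S100a8 and Ngp reached 0 counts. A low sum can thus be largely Mmp9 and is a weak measure of neutrophil RNA. Ly6g was at 0 counts in 18 of 21 mice, among them PS/E3H 4 and PS/E2H 4. It had 9 counts in E2H 1, 8 in PS/E4H 1 and 10 in PS/E3H 3. Of the 10 markers 9 could be tested in the pooled fit and 2 passed, both higher. Their median log2 fold change was 2.75 pooled. In the E2, E3 and E4 lines, with 6 tested in each, it was 0.07, 3.34 and 3.97. S100a8 passed in the E4 line, at 5.46 ± 1.41 (SE; adjusted p = 0.0277). PS/E4H 1, with the highest sum of its group, had the highest Csf3r of all mice at 18.9 CPM, and PS/E3H 1, with the lowest sum of the PS19 mice at 1.92 CPM, had their lowest Csf3r at 9.23 CPM. PS/E4H 4 and PS/E4H 3, with sums of 2.44 and 3.02 CPM, had 16.3 and 17.1 CPM of Csf3r, and E2H 1, with 11.8 CPM, had 6.07. The part of neutrophils in the Csf3r result was not tested. Without the 4 mice with the highest sums, a choice made after seeing the data, the pooled log2 fold change of Csf3r was 1.25 (adjusted p = 5.59e-06). That fit called 3 members. In that fit Csf1r was at 0.78, Csf1 at 0.45, Csf2rb at 1.55 and Csf2rb2 at 1.38, which passed, Il34 at -0.19 (adjusted p = 0.0499), which also passed, and Csf2ra at -0.20 (adjusted p = 0.114), which did not.

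**Figure D3:**
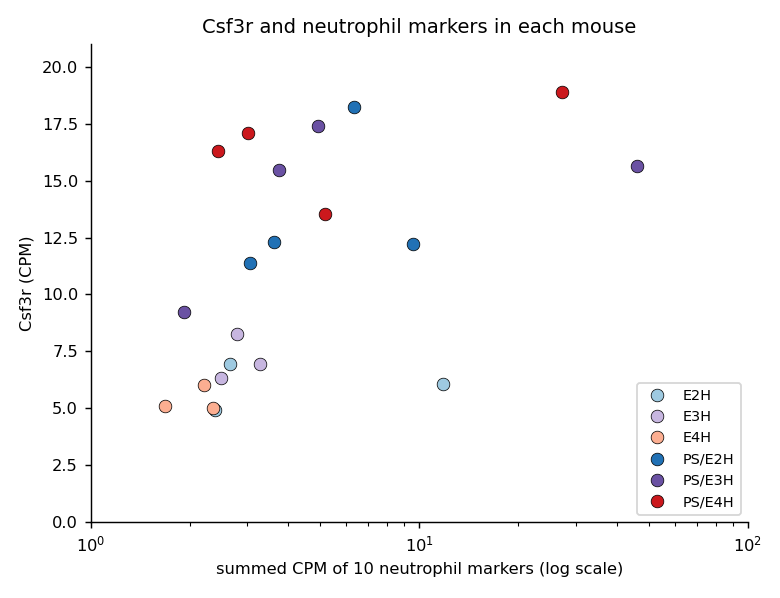
Csf3r (y axis, CPM) against the summed CPM of 10 neutrophil markers (x axis, log scale) in each of the 21 mice, colored by group. PS19 mice lie at 9.23 CPM of Csf3r or more and parental mice at 8.28 CPM or less. A low marker sum is a weak measure of neutrophil RNA.

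**Figure D4:**
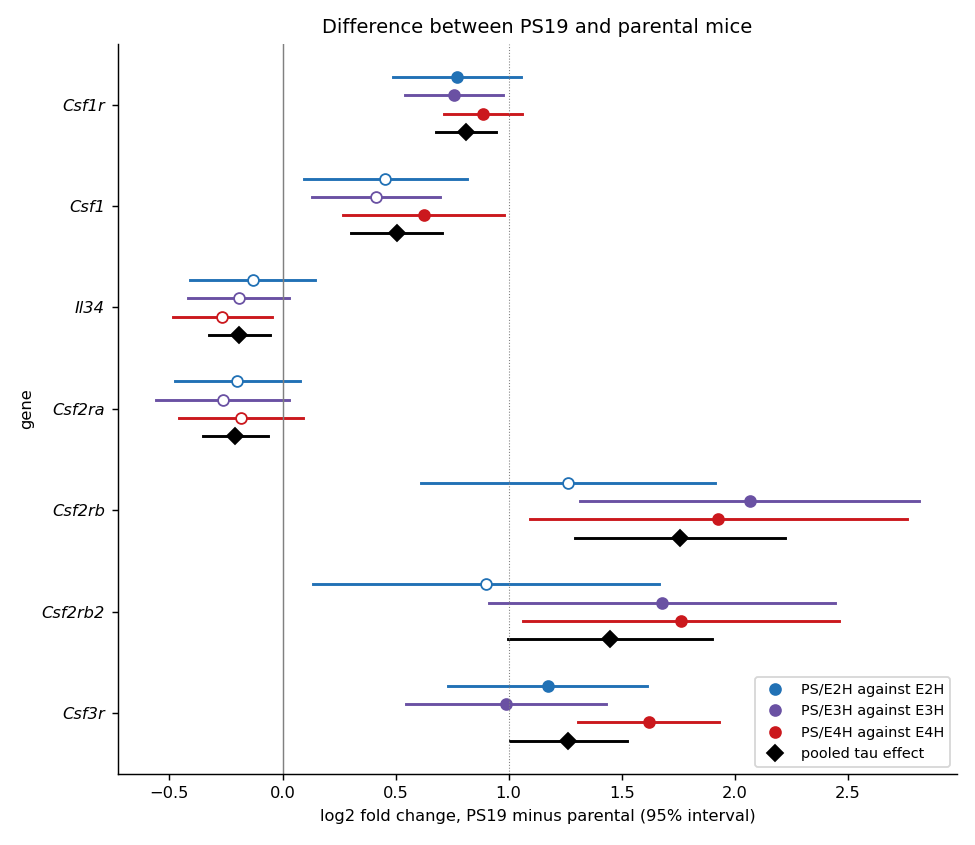
Fitted log2 fold change of each gene, PS19 minus parental (x axis; lines are 95% intervals; colors are the 3 APOE lines, the black diamond is the pooled effect). Filled symbols passed at an adjusted p under 0.05, the solid vertical line marks no difference and the dotted line marks 2-fold. Il34 and Csf2ra lie left of 0 and the other 5 genes right of it in each line.

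No member passed in any comparison between APOE genotypes. In the 3 comparisons of parental lines and the 3 of PS19 groups, which share mice with each other, 0 of 7 members passed or were called by edgeR, and 0 were called by DESeq2. In the parental lines 0.178%, 0.162% and 0.216% of genes passed (E2H against E3H, E4H against E3H and E4H against E2H), and in the PS19 groups 0.113%, 0.0197% and 0.119% in the same order. Unadjusted p was under 0.05 for 2 members. For Csf1, E2H minus E3H was at -0.27 ± 0.11 (SE; adjusted p = 0.323), without overlap, as 23.4% of genes did. For Csf3r, E4H minus E3H was at -0.42 ± 0.15 (SE; adjusted p = 0.596), without overlap, as 12.6% of genes did. Csf1 did not overlap between E4H and E2H mice (21.4% of genes). Among PS19 mice 0 of 7 members were without overlap in PS/E2H against PS/E3H, PS/E4H against PS/E3H and PS/E4H against PS/E2H, beside 5.39%, 3.8% and 6.86% of genes. The 95% interval of the log2 difference of Csf1r was -0.22 to 0.29 for PS/E2H against PS/E3H, -0.11 to 0.32 for PS/E4H against PS/E3H and -0.15 to 0.28 for PS/E4H against PS/E2H. For Csf1 these intervals were -0.59 to 0.12, -0.28 to 0.46 and -0.07 to 0.72, and for Il34 -0.15 to 0.32, -0.30 to 0.15 and -0.39 to 0.07.

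Whether the difference between PS19 and parental mice itself depended on the APOE line was tested with 3 interaction fits. By edgeR 0 members and 0 genes passed, 1265, 847 and 2223 genes had an unadjusted p under 0.05 (E2 minus E3, E4 minus E3 and E4 minus E2), and 7, 11 and 37 genes were called by DESeq2, none of them a member. The member with the smallest unadjusted p was Csf3r, whose difference was larger in the E4 than in the E3 line by 0.63 on the log2 scale (95% interval 0.08 to 1.17, adjusted p = 1). For Csf1r the interaction was 0.02 (-0.35 to 0.38), 0.13 (-0.15 to 0.40) and 0.11 (-0.22 to 0.44) in the same order. The beta chains had the widest intervals, for Csf2rb -1.78 to 0.18, -1.27 to 0.98 and -0.39 to 1.71. That Csf2rb and Csf2rb2 passed in the E3 and E4 lines and not in the E2 line is therefore not a shown difference between lines.

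The rise of Csf1r was set beside that of other genes of myeloid cells. Per mouse, the mean log2 FPKM of a marker list was subtracted from the log2 FPKM of Csf1r, and PS19 mice were compared with parental mice by a two-sided exact permutation test within lines (42875 permutations). Relative to 10 genes of homeostatic microglia, among them Fcrls and P2ry12, the value was higher, 1.05 ± 0.07 against 1.34 ± 0.26 (SD, n = 9 and 12), a difference of 0.29 (exact p = 0.00084). Relative to 10 pan-myeloid genes, among them Ctss, C1qa and C1qb, it was lower, 1.12 ± 0.14 against 0.56 ± 0.23, a difference of -0.57 (exact p = 2.33e-05, the smallest these permutations can give). Csf1r thus rose by more than the mean of the first list and by less than that of the second. In the E2, E3 and E4 lines the first difference was 0.54, 0.22 and 0.10 and the second -0.21, -0.58 and -0.92, and whether the lines differ was not tested. Both differences kept their direction and p under 0.05 without any 1 mouse. The marker lists were, however, chosen with earlier results of these data known. The paper itself names C1qa and C1qb as highly upregulated in PS19 mice of the E4 line. A lower value relative to the pan-myeloid list could therefore be foreseen, and its exact p is not an independent test. The exact p-values hold for these lists as chosen and not for myeloid genes in general.

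The homeostatic list did not move as one. In the E2, E3 and E4 lines 0, 4 and 8 of its 10 genes rose, with median log2 fold changes of 0.20, 0.45 and 0.75. In the pooled fit 5 of its 10 genes rose and none fell, with a median log2 fold change of 0.43. Fcrls, an Fc receptor-like gene of microglia, rose by 1.33 ± 0.17 (SE; adjusted p = 6.76e-06), whereas P2ry12, a purinergic receptor of resting microglia, was at -0.06 ± 0.11 (SE; adjusted p = 0.768). All 10 pan-myeloid genes rose, with a median of 1.52, among them Ctss, a protease, by 1.51 ± 0.12 (SE; adjusted p = 8.87e-09). All 10 genes of disease-associated microglia also rose, with a median of 1.64. The summed FPKM of the pan-myeloid list was 162 to 246 in parental and 358.5 to 809 in PS19 mice. The part of cell number in the Csf1r result was not tested. Of 8 genes of border macrophages and monocytes 6 rose, with a median of 1.2 and sums of 1.57 to 3.16 FPKM in parental and 3.77 to 7.80 FPKM in PS19 mice.

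Markers of the glial cells that make Csf1 moved as well. All 7 astrocyte genes rose in the pooled fit, with a median of 0.39, and their summed FPKM was 248 to 312 in parental and 474 to 869 in PS19 mice. Gfap, the intermediate filament of astrocytes, rose by 2.68 ± 0.14 (SE; adjusted p = 2.26e-11), and the glutamate transporters Slc1a2 and Slc1a3 by 0.26 ± 0.04 (SE; adjusted p = 9.77e-05) and 0.39 ± 0.05 (SE; adjusted p = 1.46e-05). In the E2, E3 and E4 lines 0, 6 and 5 of 6 oligodendrocyte genes rose, with medians of -0.04, 0.44 and 0.46. In the pooled fit 4 rose, with a median of 0.29, among them Mbp, a myelin protein, by 0.40 ± 0.07 (SE; adjusted p = 2.39e-04). Of 5 endothelial genes 1 rose, of 5 genes of choroid plexus and pituitary 1 fell, and none of 3 blood genes passed. Blood genes summed to 140.2 to 562 FPKM in parental and 22.7 to 281 FPKM in PS19 mice. The part of these cells in the Csf1 result was not tested.

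**Figure D5:**
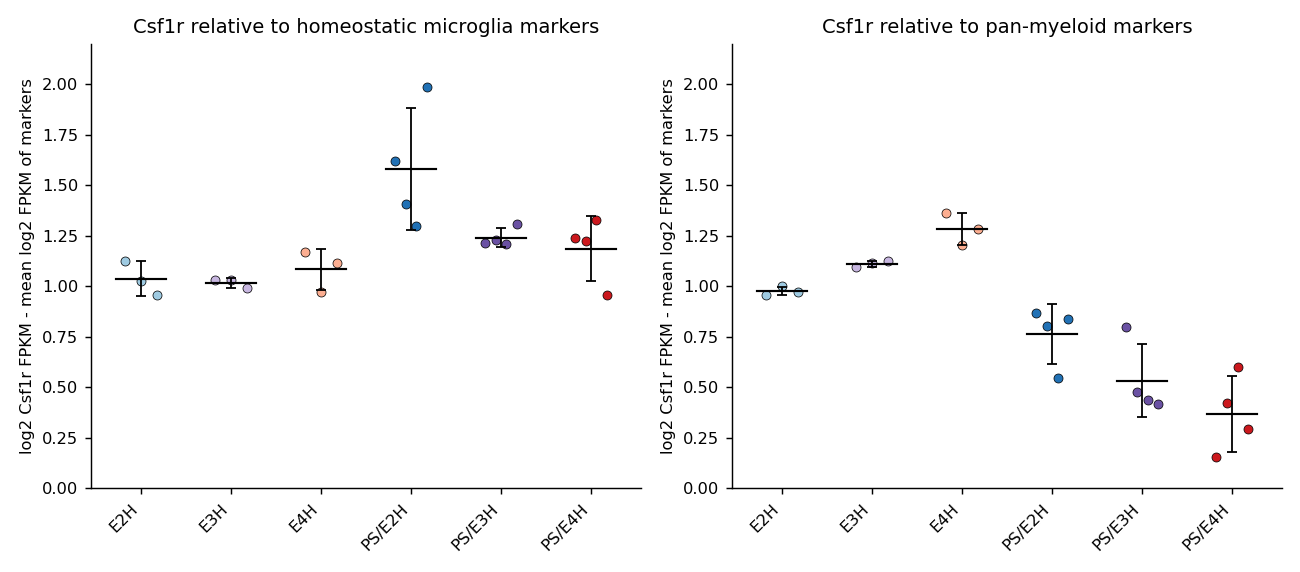
Log2 FPKM of Csf1r minus the mean log2 FPKM of 10 homeostatic microglia markers (left) or 10 pan-myeloid markers (right) in each mouse, by group (points are mice, line and bars are mean ± SD). On the left PS19 means are above their parental means and on the right below them, by 0.29 and 0.57 over the 3 lines.

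Of the other ligands and receptor chains of these families little RNA was found. Csf2 and Csf3, which encode the ligands of the granulocyte-macrophage and granulocyte receptors, had at most 4 and 5 counts in any mouse, Il3 had 0 in all 21 mice, which allows up to 3 counts, and Il5ra had at most 9. Il5 had up to 26 counts and was at -0.05 ± 0.74 (SE; adjusted p = 0.977) pooled. Il3ra, the alpha chain of the IL-3 receptor, had 48 to 192 counts and did not pass in any line or pooled, where it was at 0.51 ± 0.21 (SE; adjusted p = 0.0878). Its log2 differences in the E2, E3 and E4 lines were 1.22 ± 0.25 (SE; adjusted p = 0.0644), 0.46 ± 0.35 (SE; adjusted p = 0.507) and -0.15 ± 0.29 (SE; adjusted p = 0.787). Thus 0 of the 2 genes of this list that could be tested passed.

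Among 5 genes of other partners and of shedding, 3 rose in the pooled fit and none fell. Trem2, a microglial receptor that signals through the same adaptor as CSF1R can, was called in each line, at 1.14 ± 0.21 (SE; adjusted p = 0.0475), 1.49 ± 0.15 (SE; adjusted p = 0.00135) and 1.95 ± 0.12 (SE; adjusted p = 4.37e-05). Ptprz1, a phosphatase of glial cells that also binds IL-34, rose pooled by 0.21 ± 0.06 (SE; adjusted p = 0.00948). Adam17, a protease that sheds CSF1R, rose pooled by 0.29 ± 0.09 (SE; adjusted p = 0.023) and is named because it passed. Adam10 was at -0.03 ± 0.06 (SE; adjusted p = 0.803).

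Of 26 genes that signal below CSF1R, 2, 5 and 10 rose in the E2, E3 and E4 lines and 13 in the pooled fit, and 1 fell in the E4 line and pooled. The pooled median was 0.20. Those called were mostly kinases and adaptors of blood cells. Tyrobp, the adaptor DAP12, rose pooled by 1.57 ± 0.15 (SE; adjusted p = 1.03e-07) and Fgr, a Src-family kinase, by 2.80 ± 0.34 (SE; adjusted p = 2.76e-06). In the E4 line the kinase Lyn rose by 1.09 ± 0.12 (SE; adjusted p = 4.21e-04), Plcg2, a phospholipase, by 1.08 ± 0.14 (SE; adjusted p = 0.00143), Pik3cg, a PI3-kinase subunit, by 1.05 ± 0.23 (SE; adjusted p = 0.0144), and Socs3, an inhibitor of cytokine signaling, by 1.22 ± 0.23 (SE; adjusted p = 0.00693). The genes with the highest FPKM are used by many cell types. Of these, Mapk3, an ERK kinase, was at -0.07 ± 0.06 (SE; adjusted p = 0.472) and Grb2, an adaptor, at 0.10 ± 0.04 (SE; adjusted p = 0.107).

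Of 12 transcription factors of myeloid cells, 11 could be tested, and 1, 5 and 7 rose in the E2, E3 and E4 lines and 7 in the pooled fit. The pooled median was 0.67. Spi1, which encodes PU.1, the factor that drives Csf1r in macrophages, rose by 1.08 ± 0.11 (SE; adjusted p = 2.64e-07). Irf8 rose by 1.21 ± 0.14 (SE; adjusted p = 1.27e-06), Runx1 by 1.25 ± 0.16 (SE; adjusted p = 4.94e-06), Cebpa by 1 ± 0.09 (SE; adjusted p = 7.41e-08) and Ikzf1 by 0.86 ± 0.12 (SE; adjusted p = 2.07e-05). Mef2c, which neurons also express, was the gene that fell, at -0.23 ± 0.07 (SE; adjusted p = 0.0277), and Ets2 was at -0.10 ± 0.06 (SE; adjusted p = 0.306). No gene of the 4 lists passed in any of the 6 comparisons of APOE genotypes.

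The genes most like a member over the 21 mice were found by Pearson's r of log2 CPM among 15753 genes, as a description without a test, since all mice of a set share its difference. For Csf1r these were Itgb5 (r = 0.977), an integrin subunit, C1qc (0.973), a chain of complement C1q, Ctsd (0.971) and Ctsz (0.968), which are lysosomal proteases, and Ly9 (0.967), a receptor of the SLAM family. Itgb5 was at 51.7 ± 5.04 CPM in parental and 94.6 ± 10.9 CPM in PS19 mice (SD, n = 9 and 12). For Csf1 they were Hpgds (0.942), a prostaglandin synthase of microglia, Plau (0.927), the urokinase protease, Ddr1 (0.922), a collagen receptor, Igfbp5 (0.918) and Naglu (0.918), a lysosomal enzyme. For Il34 they were Plppr2 (0.925), Neurl1a (0.911), Fam171a2 (0.909), Fam131a (0.904) and Lmo4 (0.899), and Plppr2 was at 132 ± 13.5 CPM in parental and 106 ± 17.9 CPM in PS19 mice.

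Between members, r over all 21 mice was 0.93 for Csf2rb with Csf2rb2, 0.90 for Csf1r with Csf3r, 0.79 for Csf1r with Csf1 and -0.65 for Csf1 with Il34. Once each mouse was taken as its deviation from its group mean, which removes the difference between PS19 and parental mice, r was 0.74, 0.26, 0.64 and -0.37 for these pairs. In the same deviations Csf2ra went with Csf3r (r = 0.76), and Il34 ran against Csf2rb (r = -0.75). The points are the same libraries, and these values are a description over 21 mice.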

How the data were processed

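RNA from the frozen, powdered forebrains of 21 mice was made into stranded poly(A) libraries and read as pairs on a NovaSeq instrument. Per the methods, reads were trimmed with Cutadapt, aligned with HISAT2 and assembled with StringTie. The submitters' processing notes name GRCm38.p5. How gene counts were derived and whether strand was used are not given in the sources used here. The deposited counts are whole read numbers per gene and not normalized, and the deposited FPKM values are scaled by the authors for length and depth. Columns matched their samples by name, and 0 columns were left without a sample. Totals were 59265459 to 75932183 counts. Of 27 pairs of mice within groups, 0 had identical values.

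Counts were fitted with edgeR 4.0.16 in R 4.3.3 (TMM, filterByExpr with a minimum count of 10 and a minimum total of 15, quasi-likelihood F test, Benjamini-Hochberg adjustment), for 9 comparisons of groups, the pooled tau effect with the APOE line as a covariate, and 3 interactions. Standard errors and intervals of 95% come from these fits. The p-values of these fits set a difference between groups against the spread between the mice within groups. Sex had no covariate, since the labels do not give it. Alternatives were no fold limit, DESeq2 1.42.0, RLE normalization, no filter, 1 fit over all 6 groups, limma 3.58.1 on log2(FPKM + 1) and log2(FPKM + 0.1) for genes at 0.1 FPKM or more, the replicate number as a block, leaving out each mouse, and, chosen after seeing the data, leaving out 4 mice with over 8 summed CPM of neutrophil markers. Fits were tested on simulated data.

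The members and gene lists were chosen with earlier results of these data known. Named genes were the members, the 5 genes most correlated with Csf1r, Csf1 and Il34 among those at 1 CPM or more, list genes called in some comparison and the 3 of highest FPKM in each list. Some genes this rule names are not reported here. Other names were chosen after their values were seen, among them Csf2, Csf3, Il3, Adam17 and Ly6g. Shared exon windows were 50 bases long.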

Additional observations from a re-analysis of the deposited data

Results flagged for a closer look

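Il34 in PS/E4H 1 was at 31.2 CPM, far below the other 3 mice of its group at 38.5 to 39.5 CPM, a gap of 0.88 of the group's range. Csf3r in PS/E2H 3 was at 18.2 CPM, far above the other 3 mice at 11.4 to 12.3 CPM, a gap of 0.866 of the range. The 7 genes were examined in each of the 3 PS19 groups, 21 sets of values from the same 12 mice, and these were 2 of them. Chance puts such a mouse in about 1 of 20 sets, and sets that share mice are not independent.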

How the results depend on the processing

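Of 490 values recomputed for the members, 424 kept their direction and side of the threshold, 60 no longer passed, 6 newly passed and 0 reversed. The members called in PS/E2H against E2H were 1, and 2 with no fold limit and with DESeq2, 0 with no filter and with both limma settings, and 0 to 1 without 1 mouse. In PS/E3H against E3H they were 2, and 4 with no fold limit, 0 with limma on log2(FPKM + 1), 1 on log2(FPKM + 0.1), and 0 to 3 without 1 mouse. In PS/E4H against E4H they were 3, and 5 with no fold limit and 1 with limma on log2(FPKM + 1). Pooled they were 3, and 7 with no fold limit and 0 with limma on log2(FPKM + 1). Without the 4 mice with most neutrophil RNA they were 3. The pseudocount compresses low genes, and an unfiltered table has more genes to adjust over.

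Over all genes, 100 genes were called in PS/E2H against E2H, 270 by DESeq2, 208 with all 6 groups in 1 fit, 32 and 69 by limma with 1 and 0.1 added, and 55 with no filter. In PS/E3H against E3H 281 were called, and 59 and 174 by limma, 173 with no filter. In PS/E4H against E4H 621 were called and 132 by limma with 1 added, and pooled 595, and 81 and 345 by limma. Without 1 mouse these calls were 30 to 99, 77 to 494, 384 to 702 and 519 to 659. For APOE, main, DESeq2 and limma with 1 added gave 30, 76 and 16 (E2H against E3H), 21, 32 and 11 (E4H against E3H), 39, 86 and 23 (E4H against E2H), 22, 67 and 12 (PS/E2H against PS/E3H), 4, 22 and 1 (PS/E4H against PS/E3H) and 22, 85 and 9 (PS/E4H against PS/E2H). With all 6 groups in 1 fit the last 3 gave 38, 10 and 48, and no filter gave 13 for E4H against E3H and 2 for PS/E4H against PS/E3H.

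Same-numbered mice did not deviate together as a rule: over 30 pairs the correlation of deviations was -0.276 to 0.324 (median -0.0444), 4 pairs exceeded 0.1, and 7 of 21 mice correlated best with their own number. For numbers 1, 2 and 3 it was 0.006, 0.324 and 0.236 in PS/E2H against E2H. It was 0.033, 0.154 and 0.067 in PS/E3H against E3H and -0.085, -0.141 and -0.106 in PS/E4H against E4H. With the replicate block the called members stayed at 1, 2, 3 and 3 in the E2, E3 and E4 lines and pooled, with 0 elsewhere. Calls over all genes rose with the block from 100 to 150 in PS/E2H against E2H. They fell to 157 in PS/E3H against E3H, 423 in PS/E4H against E4H and 487 pooled. They also fell to 12 in E4H against E3H, 25 in E4H against E2H and 0 in PS/E4H against PS/E3H. Csf3r in the E3 line, Csf1 in the E4 line and Il34 and Csf2ra pooled no longer passed with the block, and Csf1 in the E2 line did.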
